A study of Caenorhabditis elegans with 16 samples.

Results

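The sperm genes of the table were taken by name: every row whose gene name starts with msp-, msd-, ssp- or spe-, and gsp-3 and gsp-4. This gave 75 of the 19750 genes measured: 34 msp, 4 msd, 12 ssp, 23 spe and 2 gsp genes. They were measured in 16 samples of Caenorhabditis elegans, each a pool of about 500 whole N2 (wild-type) worms on day 1 of adulthood, in 4 groups of 4. All worms grew at constant temperature on bacteria that carried either the empty RNAi vector (EV) or a construct against ech-6, an enoyl-CoA hydratase gene. The agar of each RNAi group held either the vehicle, water, or polysorbate 80 (P-80), a soluble fat that carries oleic acid. Worms on the ech-6 construct are called silenced worms, which names the treatment and not a measured ech-6 level, and the groups are named by RNAi and diet (EV + vehicle, EV + P-80 and the same pair for ech-6 RNAi). The comparisons ask how the fat diet changed gene expression with and without RNAi against ech-6.

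A hermaphrodite worm makes its sperm during the last larval stage and then turns to making oocytes, so a young adult carries a store of sperm that it made earlier. Major sperm proteins (MSPs), encoded by the msp genes, form the filaments on which the nematode sperm crawls, and they are also released as a signal that makes oocytes mature and the gonadal sheath contract. The msd and ssp genes encode other small proteins with an MSP domain, gsp-3 and gsp-4 encode protein phosphatases of sperm, and the spe genes were found through mutants with defective sperm and act in sperm formation, activation and fertilization.

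Most of the msp genes lay in clusters on 2 chromosomes. In the WBcel235 assembly 12 protein coding msp genes and 2 msp pseudogenes were annotated on chromosome II between positions 4785898 and 5810330, and 18 protein coding genes and 2 pseudogenes on chromosome IV between 5055631 and 10143740 for the coding genes. The table links 13 msp genes to 1 shared protein entry, 4 to another and 2 pairs to 1 entry each. All 4 msd genes also share 1 entry, and so do ssp-9 and ssp-11. A read can therefore fit several of these copies, and the level of a single copy is uncertain. The read counter left out by default any read that fitted several places, which lowers the level of near-identical copies by an unknown amount. By their present names 6 further genes of the table are spe genes (spe-18, spe-36, spe-43, spe-49, spe-51 and spe-54). They are not among the 75, and none of the 6 passed the test in any comparison. At an unadjusted p under 0.05 there were 2 for P-80 in EV worms and 1 for ech-6 RNAi with vehicle. Of all genes 28.5% and 18.5% had such a p in these comparisons, and 6.97% and 1.95% were called higher.

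The libraries held between 15306307 and 28129104 reads. Levels are given as reads per 1000000 reads of the library (CPM), and a call means a Benjamini-Hochberg adjusted p under 0.05 over all 19750 genes in limma's moderated test. Nothing in the labels says whether the 4 pools of a group were grown separately, so p-values measure the spread between these pools. In the ech-6 RNAi + vehicle group 3 libraries had 66.4 to 71.8 CPM of ech-6, but the library labelled ech-6 RNAi + vehicle replicate 3 had 178 CPM, within the 164 to 237 CPM of the EV libraries. Counts are therefore also given without it. Centring each sample on its median moved the split of all genes called for P-80 in EV worms from 1377 higher and 1805 lower to 2361 higher and 1361 lower. No sperm gene was called lower under either scaling.

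Sperm genes covered a wide range of levels, with the highest single values among the MSP genes. Per kb of exon the 34 msp genes had a median level of 189 CPM per kb, from 0.754 for the pseudogene msp-37 to 538 for msp-31. The 4 msd genes had a median of 219 CPM per kb, the 12 ssp genes of 42.3 and the 23 spe genes of 11.4. gsp-3 stood at 90.2 and gsp-4 at 67.3 CPM per kb. The most abundant spe gene by this measure was spe-11, at 44.8 CPM per kb. Of the 75 genes, 71 averaged at least 1 CPM. Under that level were msp-37, msp-52, msp-58 and spe-29.

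With P-80 the MSP messages were more abundant in both RNAi backgrounds. In EV + vehicle the summed msp level was 2043, 2388, 2168 and 1978 CPM in the 4 samples. In EV + P-80 it was 2659, 2511, 2397 and 2939 CPM. In the silenced worms it was 2566, 2217, 2542 and 2553 CPM with vehicle and 3039, 2960, 2747 and 3011 CPM with P-80. Every P-80 sample was above every vehicle sample of its own RNAi group, by a narrow margin in EV worms. The mean in EV worms was 2144 ± 181 CPM with vehicle and 2626 ± 234 CPM with P-80, and in silenced worms 2470 ± 169 and 2939 ± 133 CPM (SD, n = 4 each). The ratio of the means was 1.22 for P-80 in EV worms and 1.19 in silenced worms. The msp share of all reads was lowest in EV + vehicle, at 0.215%, and highest, at 0.293%, in ech-6 RNAi + P-80. In whole worms more sperm per worm and more RNA per sperm cannot be told apart. Since CPM is a share of the library, less RNA of other genes cannot be told apart from these either.

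**Figure D1:**
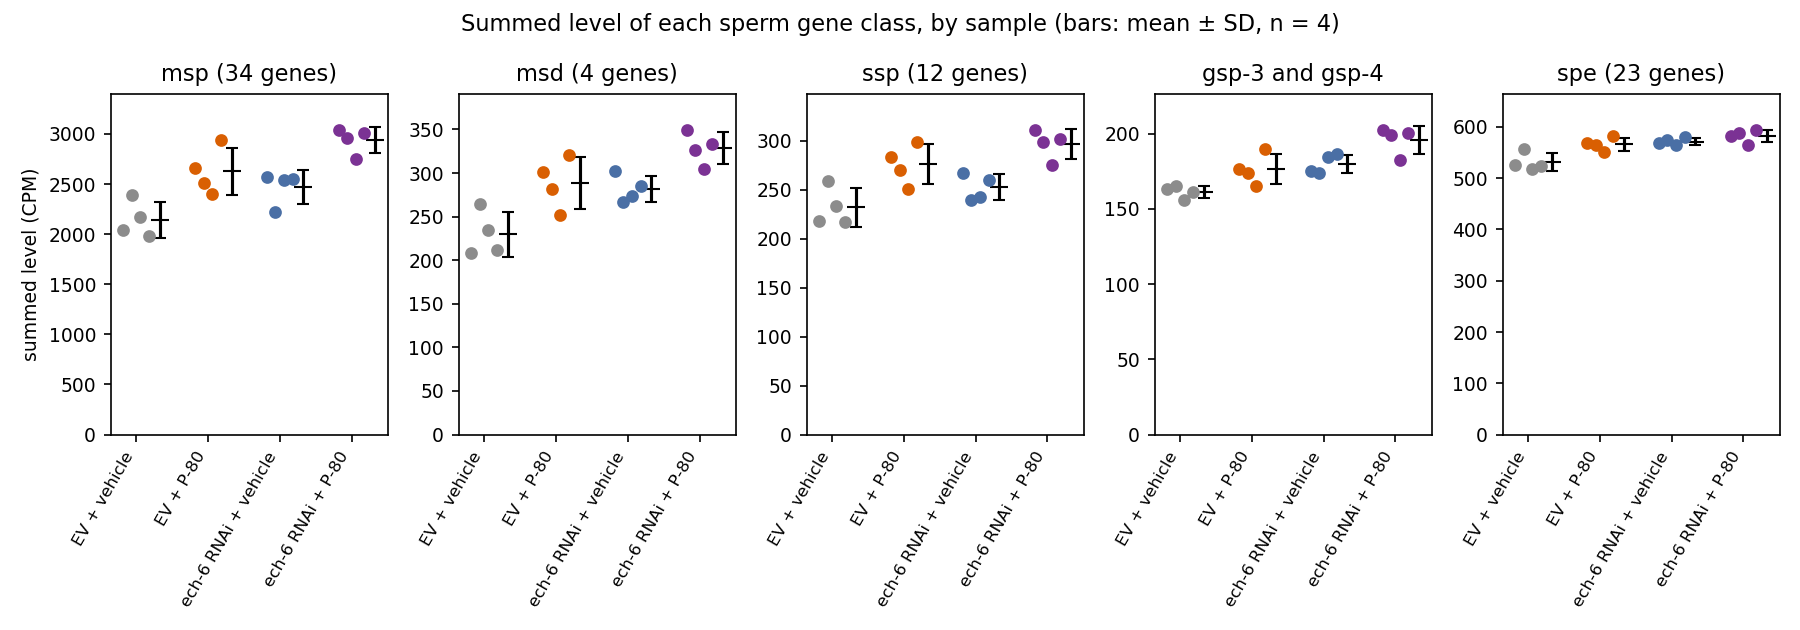
Summed level (CPM) of each sperm gene class in every sample, in 5 panels with axes from 0, with the mean and SD of 4 samples beside each group. The msp, msd and ssp means are lowest in EV + vehicle and highest in ech-6 RNAi + P-80. Between these, they are lower in ech-6 RNAi + vehicle than in EV + P-80. From the first group to the last the gsp mean goes from 161 to 196 CPM and the spe mean only from 531 to 582 CPM.

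In EV worms 31 of the 75 sperm genes were called higher with P-80, against 6.97% of all genes, and none was called lower. No member was lower at an unadjusted p under 0.05 either, and voom weights on the recovered reads called none lower. The msp genes made up 22 of the 31 calls (22 of 34, or 64.7%). The other calls were 3 of 4 msd, 3 of 12 ssp, 2 of 23 spe and 1 of 2 gsp genes. These 9 calls outside msp went down to 2 without EV + vehicle replicate 1, 3 without replicate 4 of that group and 4 without EV + P-80 replicate 1 or 4, and up to 15 without EV + vehicle replicate 2. Over all genes 1377 were called higher, and this count was 893 without EV + vehicle replicate 1 and 1519 without replicate 2. The 4 samples of each group did not overlap, with P-80 higher, for 23 members, 17 of them msp genes, against 8.2% of all genes. The median log2 fold change was 0.31 for the msp genes and 0.16 for the 41 other sperm genes, and that of all genes was 0.00. Whether the msp genes differ from the other classes was not tested.

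In silenced worms 19 of the 75 were called higher with P-80, against 2.63% of all genes. They were 16 of 34 msp, 1 of 4 msd and 2 of 12 ssp genes, with no spe or gsp gene among them (1 spe gene and both gsp genes at an unadjusted p under 0.05). The groups did not overlap for 25 members, 19 of them msp genes, against 4.85% of all genes. The median log2 fold change was 0.25 for the msp genes and 0.12 for the other sperm genes. The P-80 comparisons of EV and of silenced worms share no samples. Their tests do share 1 estimate of each gene's spread, from all 16 samples, so the calls are not independent. Of the msp genes 15 were called in both, or 68.2% of the msp calls in EV worms and 93.8% of those in silenced worms. Over all genes 410 were called higher in both (2.08% of those tested), or 29.8% of the calls in EV worms and 79% of those in silenced worms.

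This second set of calls rested on thin margins. Without ech-6 RNAi + vehicle replicate 2, the vehicle library with the lowest msp sum, 16 msp calls became 1, while the calls over all genes went from 519 higher to 264. Without replicate 3 of that group, the library with a high ech-6 level, 6 msp genes and no other sperm gene were called, beside 307 of all genes. A fit without the mean-variance trend called none of the sperm genes and 222 of all genes higher. The log2 ratio of the summed msp level moved less, from 0.20 to 0.28 when each sample was left out in turn.

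**Figure D2:**
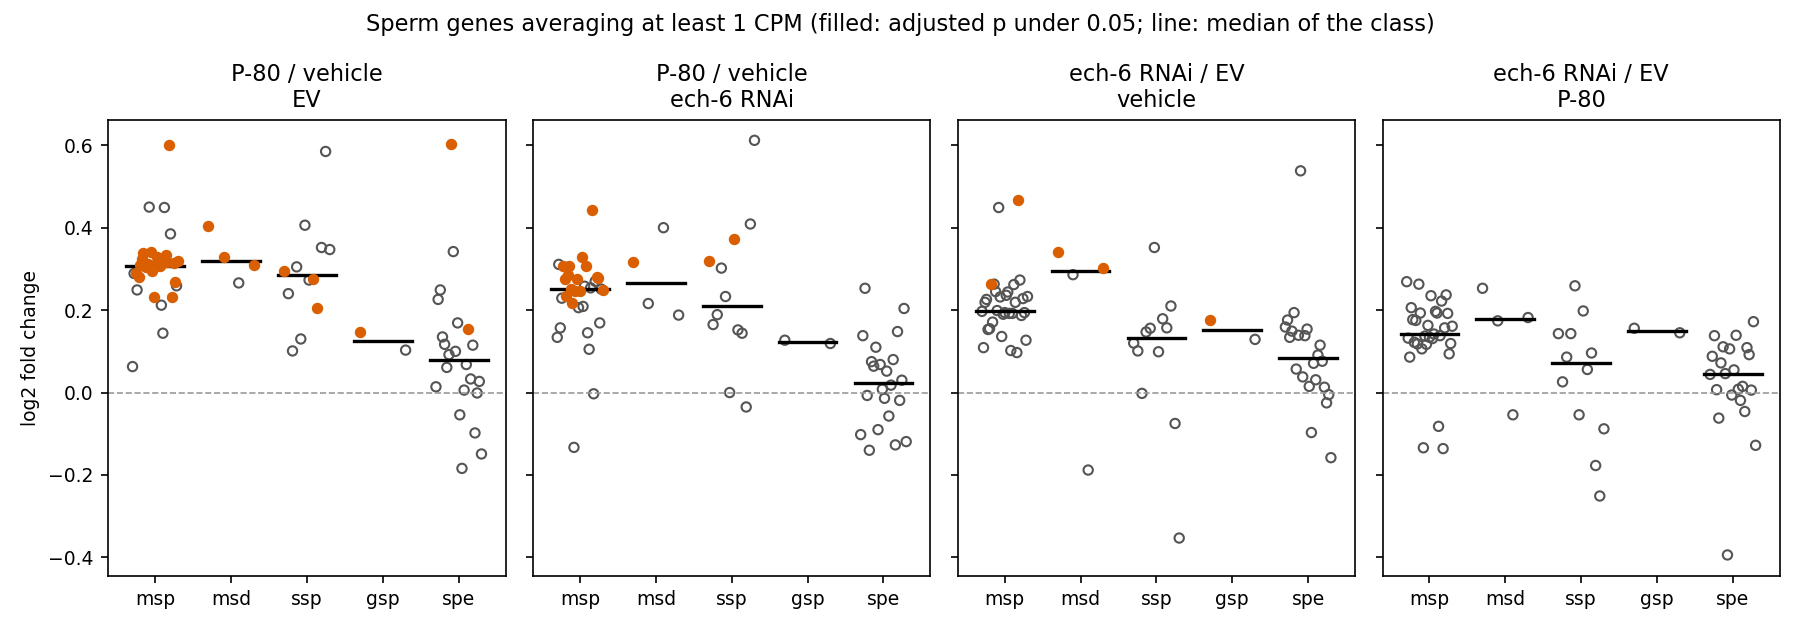
Log2 fold change of the 71 sperm genes that average at least 1 CPM, by class, in the 4 comparisons of the design, with a line at the median of each class. Filled points passed an adjusted p of 0.05. The coding msp points lie above 0 in both P-80 panels, the pseudogenes msp-42 and msp-71 are at -0.13 and -0.003 in silenced worms, and the spe points lie on both sides of 0.

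The coding MSP genes above the lowest levels shared a direction. All 29 protein coding msp genes that averaged at least 1 CPM had a positive log2 fold change with P-80. It ran from 0.06 to 0.45 in EV worms and from 0.11 to 0.44 in silenced worms. The remaining coding gene, msp-58, averaged under 1 CPM, had -0.30 and -0.26 and did not pass. The medians of the coding genes on chromosome II and on chromosome IV were 0.32 and 0.30 in EV worms. In silenced worms they were 0.24 and 0.26. Deviations of these 29 genes from their group means rose and fell together over the 16 samples, with a median pairwise Pearson correlation of 0.77. These points share libraries.

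The 2 most abundant members show the pattern. msp-31 (chromosome II, 4916179 to 4916562) had 162, 186, 176 and 155 CPM in EV + vehicle and 222, 206, 191 and 232 CPM in EV + P-80. Its ech-6 RNAi samples had 219, 187, 204 and 205 CPM with vehicle and 258, 246, 217 and 239.7 CPM with P-80. The EV groups did not overlap, whereas in silenced worms the lowest P-80 sample was just under the highest vehicle sample. In log2 terms msp-31 rose with P-80 by 0.32 ± 0.07 (SE, limma adjusted p = 0.00348) in EV and by 0.24 ± 0.07 (adjusted p = 0.0449) in silenced worms.

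msp-36 (chromosome IV, 10095433 to 10095816) had 154, 178, 162 and 135 CPM in EV + vehicle and 205, 187, 172 and 213 CPM in EV + P-80. In silenced worms it had 193, 172, 199.7 and 188 CPM with vehicle and from 216 to 244 CPM with P-80. Here the EV groups overlapped by 1 pair of samples and the ech-6 RNAi groups stood apart. Its log2 fold change was 0.31 ± 0.08 in each background (SE, limma adjusted p = 0.00841 in EV and 0.0182 in silenced worms). msp-40 and msp-81, the next in abundance, were called in both backgrounds too, with log2 fold changes of 0.31 and 0.32 in EV and of 0.22 and 0.25 in silenced worms.

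Other called msp genes with a large log2 fold change in at least 1 background were msp-33, msp-45, msp-53, msp-64 and msp-65. In EV worms they ranged from 0.32 for msp-65 to 0.34 for msp-45. In silenced worms msp-65 had the largest value of the called genes, 0.44 ± 0.10 (SE, limma adjusted p = 0.0117), with 38.7, 29.7, 41.1 and 36.8 CPM in the vehicle samples and 47.4, 48.0, 49.8 and 52.4 CPM in the P-80 samples, which did not overlap. msp-64 had a value of 0.25 there and did not pass (adjusted p = 0.0714). The weakly expressed msp-63 and the pseudogene msp-42 had larger values in EV worms, 0.45 ± 0.15 and 0.45 ± 0.16, but did not pass (limma adjusted p = 0.0514 and 0.063). msp-74, at 0.39 ± 0.23, did not pass either (adjusted p = 0.282).

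The msp pseudogene msp-71 (chromosome II, 5012874 to 5013275) had another pattern. It had 5.73, 4.99, 5.43 and 4.30 CPM in EV + vehicle and 8.14, 8.21, 7.49 and 7.06 CPM in EV + P-80. Its ech-6 RNAi samples had 8.22, 7.13, 6.27 and 6.64 CPM with vehicle and 7.30, 7.53, 6.46 and 6.82 CPM with P-80. The EV + vehicle samples were thus below the samples of all other groups, which overlapped each other. The P-80 effect on msp-71, on the log2 scale, was 0.60 ± 0.11 in EV worms (SE, limma adjusted p = 0.00126) and -0.003 ± 0.11 in silenced worms (adjusted p = 0.993). The difference between these effects did not pass the test (adjusted p = 0.569). The other pseudogenes, msp-37, msp-42 and msp-52, passed in no comparison.

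**Figure D3:**
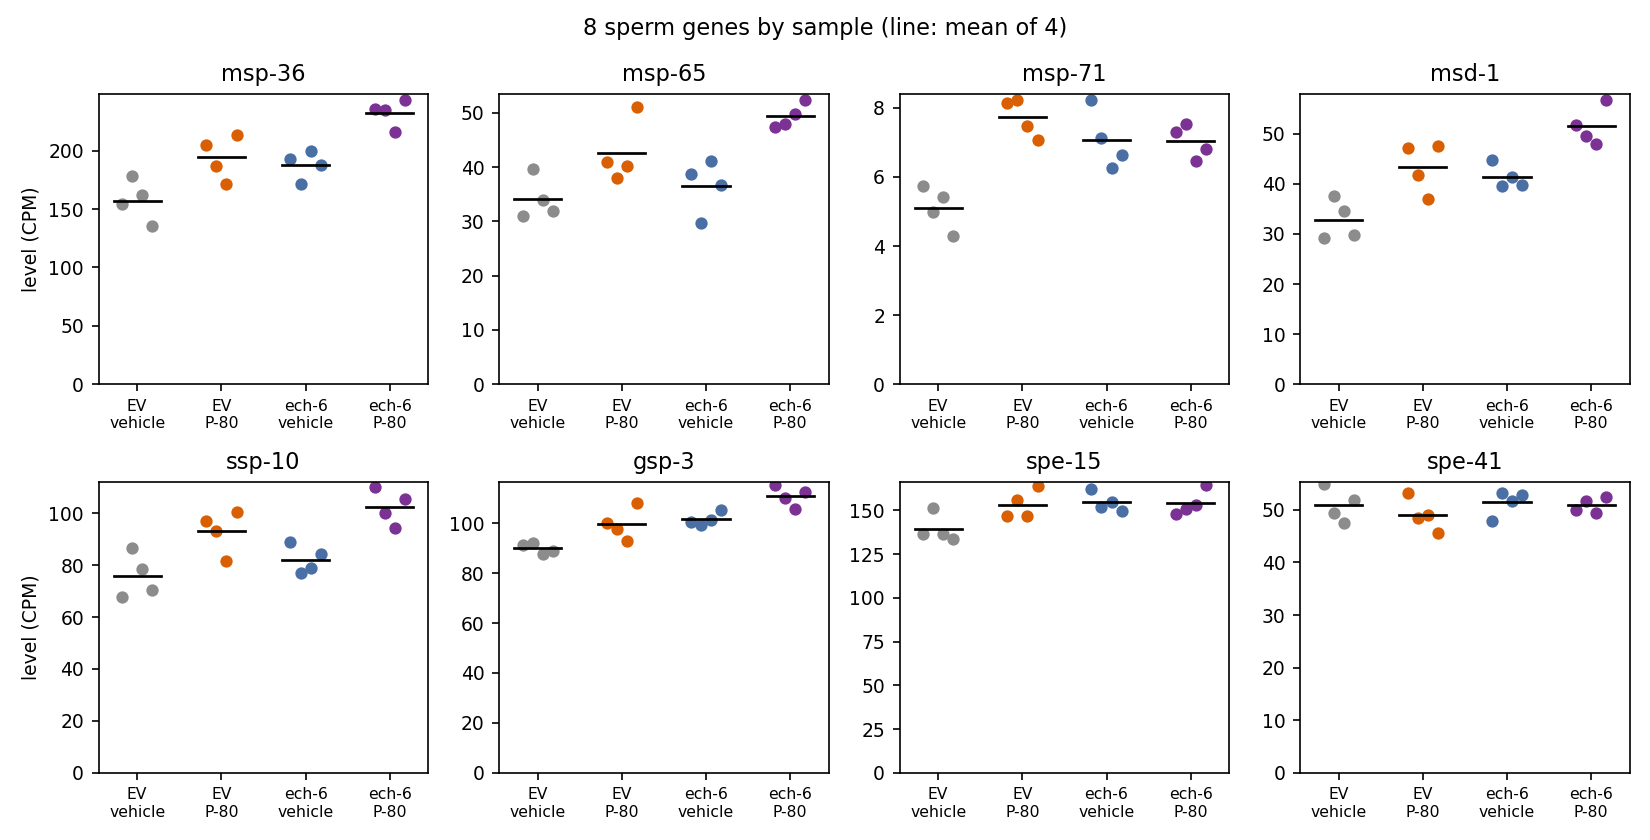
Level (CPM) of 8 sperm genes in every sample, with axes from 0 and a line at the mean of 4. msp-36, msp-65, msd-1 and ssp-10 step up with P-80 in both backgrounds, msp-71 is low in EV + vehicle alone, and spe-41 is nearly level. spe-15 runs from 134 to 152 CPM in EV + vehicle and from 147 to 164 CPM in EV + P-80.

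Among the small MSP-domain genes 3 of 4 msd and 3 of 12 ssp genes were called higher with P-80 in EV worms, and 1 and 2 in silenced worms. The summed levels of both classes overlapped between the EV groups and stood apart in silenced worms. msd-1 (chromosome IV, 10022349 to 10022678) had 29.2, 37.5, 34.5 and 29.8 CPM in EV + vehicle and 47.1, 41.8, 36.9 and 47.6 CPM in EV + P-80. In silenced worms its vehicle samples had 44.7, 39.6, 41.4 and 39.7 CPM and its P-80 samples 51.8, 49.6, 48.0 and 56.7 CPM. Only the EV groups overlapped, by 1 pair of samples. For msd-1 the log2 effect of P-80 was 0.41 ± 0.09 (SE, limma adjusted p = 0.00381) in EV and 0.32 ± 0.09 (adjusted p = 0.0331) in silenced worms. msd-2, which shares exon sequence on its strand with a second annotated gene, and msd-4 were called higher in EV worms (log2 fold changes 0.33 and 0.31). In silenced worms they had values of 0.22 and 0.19 and did not pass. The least abundant, msd-3, passed in neither (0.27 and 0.40).

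Among the 12 ssp genes all had a positive value with P-80 in EV worms, with a median of 0.29, and ssp-10, ssp-34 and ssp-35 passed. At an unadjusted p under 0.05 there were 9 of the 12 in EV worms, against 28.5% of all genes. In silenced worms there were 6, against 19.4% of all genes. ssp-10 (chromosome IV, 9850702 to 9851031), the most abundant, had 67.8, 86.7, 78.4 and 70.5 CPM in EV + vehicle and 96.9, 93.0, 81.7 and 100.3 CPM in EV + P-80. With ech-6 RNAi it had 88.8, 76.9, 78.7 and 84.2 CPM in the vehicle samples and 109.9, 100.1, 94.5 and 105.6 CPM in the P-80 samples. The latter groups stood apart and the EV groups overlapped. Its log2 fold changes were 0.30 ± 0.08 (SE, limma adjusted p = 0.0121) and 0.32 ± 0.08 (adjusted p = 0.0166). The other ssp gene called in silenced worms was ssp-33, at 0.37 ± 0.11 (adjusted p = 0.0416), which in EV worms had 0.27 and did not pass. ssp-16, the fourth of the abundant ssp genes, did not pass in either background (0.10 and 0.19).

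Of the sperm phosphatases gsp-3 was called higher with P-80 in EV worms, and gsp-4 in neither background. gsp-3 (chromosome I, 4709259 to 4710712) had 91.3, 91.9, 87.8 and 88.9 CPM in EV + vehicle and 99.9, 97.6, 93.0 and 108 CPM in EV + P-80. With ech-6 RNAi it had 100.6, 99.2, 101.4 and 105 CPM in vehicle and 115.2, 110.3, 106 and 113 CPM in P-80. No P-80 sample was below a vehicle sample of its RNAi group. Its log2 fold change was 0.15 ± 0.05 in EV worms (SE, limma adjusted p = 0.0355) and 0.13 ± 0.05 in silenced worms (adjusted p = 0.111). gsp-4 had 0.10 and 0.12.

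The spe genes, which are the largest class after msp, mostly did not pass. With P-80 they had a median log2 fold change of 0.09 in EV and of 0.03 in silenced worms, and their summed level was 531 ± 17.7 CPM with vehicle and 566 ± 12.7 CPM with P-80 in EV worms. Silenced worms had 571 ± 6.71 and 582 ± 12.3 CPM (SD, n = 4 each). The plot of spe genes by role gives the values with their errors.

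spe-44 encodes a transcription factor that drives sperm genes in spermatocytes. It had 25.0, 22.99, 23.2 and 27.6 CPM in EV + vehicle and 23.5, 24.7, 25.3 and 25.4 CPM in EV + P-80. Silenced worms had 25.9, 24.4, 26.1 and 27.1 CPM with vehicle and 26.2, 26.1, 25.1 and 22.3 CPM with P-80. All 4 groups overlapped. Its log2 fold changes with P-80 were 0.01 ± 0.07 and -0.06 ± 0.07 (SE).

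The genes that build the spermatid and its organelles gave no call for P-80, with 2 of 8 members at an unadjusted p under 0.05 in EV worms and 0 in silenced worms, against 28.5% and 19.4% of all genes. They include spe-4, a presenilin-like protein of the organelles that store MSP (0.17 and 0.01 on the log2 scale in EV and silenced worms), spe-6, a casein kinase (-0.001 and 0.03), and spe-15, a myosin (0.14 and -0.01). spe-5, a subunit of the vacuolar proton pump, had -0.10 and -0.02, and spe-10, a palmitoyltransferase, had 0.01 and -0.10. spe-26 and spe-39 had 0.09 and 0.10 in EV worms.

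The 2 spe calls, 8.7% of the class against 6.97% of all genes, were spe-27 and spe-46. Both are activation genes, which turn the round spermatid into a crawling sperm. spe-27 had 1.82, 2.66, 1.91 and 2.27 CPM in EV + vehicle and 4.47, 2.78, 3.01 and 2.996 CPM in EV + P-80, groups that did not overlap. Its log2 fold change of 0.60 ± 0.18 (SE, limma adjusted p = 0.0238) was the largest of any spe gene that averaged at least 1 CPM, but it is a weakly expressed gene that shares exon sequence on its strand with other annotated transcripts. In silenced worms it had 0.11 ± 0.18 (adjusted p = 0.803).

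spe-46, a membrane protein of the activation pathway, had 37.1, 38.7, 37.8 and 35.9 CPM in EV + vehicle and 42.1, 40.6, 42.1 and 41.7 CPM in EV + P-80. These groups stood apart, and the log2 fold change was 0.16 ± 0.05 (SE, limma adjusted p = 0.0405). The tyrosine kinase gene spe-8 had 0.03 and 0.20 in EV and silenced worms, spe-12 had 0.25 in each, spe-19 had 0.06 and 0.08, and spe-47 had 0.03 and -0.13. spe-29, under 1 CPM, had 0.38 and 0.53. None of these passed.

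**Figure D4:**
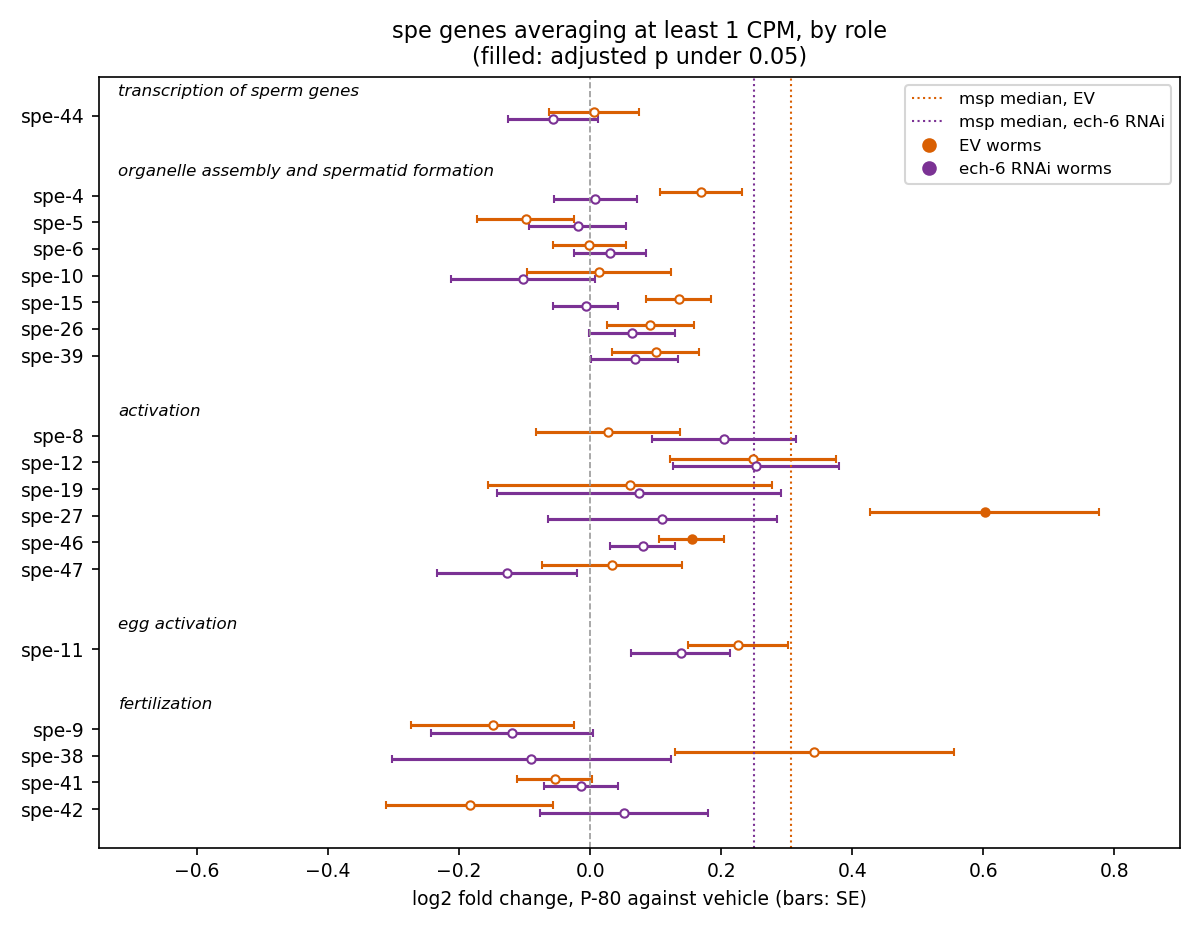
Log2 fold change with P-80 and its SE for 19 spe genes with a listed role and an average of at least 1 CPM, in EV (orange) and silenced worms (purple), grouped by role. Dotted lines mark the msp medians of 0.31 and 0.25, and filled points passed an adjusted p of 0.05.

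The genes of the sperm surface and of fertilization gave no call. Of all genes 6.97% and 2.63% were called higher in EV and silenced worms. Of the 5 members none had an unadjusted p under 0.05 in either background, against 28.5% and 19.4% of all genes. Counts from 5 genes are too small to set this role apart from all genes. spe-41, a calcium channel of the TRP family, had 54.9, 49.4, 47.6 and 51.9 CPM in EV + vehicle and 53.2, 48.4, 49 and 45.6 CPM in EV + P-80. With ech-6 RNAi it had 47.9, 53.3, 51.8 and 52.8 CPM in vehicle and 49.9, 51.7, 49.5 and 52.5 CPM in P-80. These groups all overlapped, with log2 fold changes of -0.05 ± 0.06 and -0.01 ± 0.06 (SE).

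spe-9, whose protein carries EGF repeats and is needed for sperm to enter the oocyte, had -0.15 and -0.12, and spe-42 had -0.18 and 0.05. spe-38, the weakest of these at about 2 CPM, had 0.34 and -0.09 and shares exon sequence with a neighbour. spe-11, a paternal factor that acts in the egg after fertilization, had 36.6, 41.9, 38.6 and 37.1 CPM in EV + vehicle and 45.2, 45.2, 39.8 and 50.4 CPM in EV + P-80. Its log2 fold change of 0.23 ± 0.08 (SE) lay just outside the threshold (limma adjusted p = 0.0503), and a filter at 1 CPM or median centring took it past.

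With vehicle in the agar, 5 of the 75 sperm genes were called higher in ech-6 RNAi than in EV worms, against 1.95% of all genes. They were msp-31, msp-71, msd-1, msd-4 and gsp-3. None was called lower, at an unadjusted p under 0.05 or with voom weights either. The groups did not overlap for 9 members, against 6.03% of all genes. The median log2 fold change was 0.21 for the msp genes and 0.13 for the other sperm genes, and 33 members had an unadjusted p under 0.05, against 18.5% of all genes. The summed level was 15.2% higher for msp, where the groups overlapped, and 7.53% higher for spe and 11.4% for gsp, where they did not. This comparison uses the same vehicle samples as the P-80 comparisons.

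The called values were 0.26 ± 0.07 for msp-31 (SE, limma adjusted p = 0.0445), 0.47 ± 0.11 for msp-71 (adjusted p = 0.0259), 0.34 ± 0.09 for msd-1 (adjusted p = 0.0402), 0.30 ± 0.07 for msd-4 (adjusted p = 0.029) and 0.18 ± 0.05 for gsp-3 (adjusted p = 0.0447). msd-4 had 102, 127, 114 and 103 CPM in EV + vehicle and 143, 129.9, 136 and 139 CPM in ech-6 RNAi + vehicle, and these groups did not overlap. Without the library labelled ech-6 RNAi + vehicle replicate 3 the calls fell to 1 msp gene and no other sperm gene. They also fell to none when EV + vehicle replicate 4, ech-6 RNAi + vehicle replicate 1 or ech-6 RNAi + vehicle replicate 4 was left out. Without EV + vehicle replicate 2 they reached 9 msp and 5 other genes. Over all genes 386 were called higher with all samples. This count was 250 without ech-6 RNAi + vehicle replicate 3, 282 without replicate 1 and 210 without replicate 4 of that group. It was 176 without EV + vehicle replicate 4 and 550 without EV + vehicle replicate 2.

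With P-80 in the agar, ech-6 RNAi gave no call against EV by limma, either with the trend or with voom weights, while 0.476% of all genes were called higher. At an unadjusted p under 0.05 there were 21 of 75 members, all higher, against 10.3% of all genes in either direction, and the smallest adjusted p was 0.139, for msp-36. The groups did not overlap for 3 members, against 2.56% of all genes. The median was 0.14 for the msp genes and 0.07 for the other sperm genes.

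The interaction, which asks whether P-80 acted differently in silenced than in EV worms, gave no call among the sperm genes or among all genes. At an unadjusted p under 0.05 there were 2 members, the pseudogenes msp-42 and msp-71, against 5.91% of all genes. The msp median of this difference was -0.04, and the median SE of a msp gene was 0.11. The 12 coding msp genes of chromosome II all had a negative value, with a median of -0.09, and of the 18 on chromosome IV 10 were negative, with a median of -0.001. None of them passed. Without EV + P-80 replicate 4 the msp median was 0.006, with 20 of 34 positive.

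Genes of other stages and germ cells moved beside the sperm genes. Of 12 measured molting and late larval genes, 11 were called lower with P-80 in EV worms and 10 in silenced worms, against 9.14% and 4.58% of all genes. Their summed level was 966 to 1513 CPM with vehicle and 292 to 692 CPM with P-80 in EV worms. The silenced worms had 724 to 838 CPM with vehicle and 339 to 649.7 CPM with P-80. All 6 vitellogenin (yolk) genes were called higher in both backgrounds. Of 19 oocyte and eggshell genes, 15 were called higher in EV and 2 in silenced worms, with medians of 0.31 and 0.14. Of all genes 6.97% and 2.63% were called higher. Over the 16 samples, as deviations from group means, the msp sum had a Pearson correlation of -0.83 with the molting sum (Spearman -0.75), 0.80 with the oocyte sum and 0.91 with the sum of the other sperm genes. These are descriptions, since all sums come from the same libraries.

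A fit with the mean level of the molting genes as a covariate, chosen after the data were seen, called no sperm gene in any comparison. The msp median for P-80 fell from 0.31 to 0.03 in EV worms and from 0.25 to 0.04 in silenced worms. For ech-6 RNAi with vehicle it fell from 0.21 to 0.09. In the same comparisons the median of the other sperm genes fell from 0.16 to 0.04, from 0.12 to 0.02 and from 0.13 to 0.07. This covariate differs between the groups, and with it the calls over all genes for P-80 in EV worms fell to 84 higher and 30 lower and the median SE over all genes rose from 0.14 to 0.21. The P-80 diet and the stage of the worms at collection cannot be told apart in this design. The same holds for ech-6 RNAi with vehicle. There the molting sum was 36.1% lower than in EV worms and the groups did not overlap. None of the 12 genes passed, in a comparison that called 0.982% of all genes lower. At an unadjusted p under 0.05 there were 8 of the 12, against 18.5% of all genes. Of the 19 oocyte and eggshell genes 18 had such a p there, and 0 passed.

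**Figure D5:**
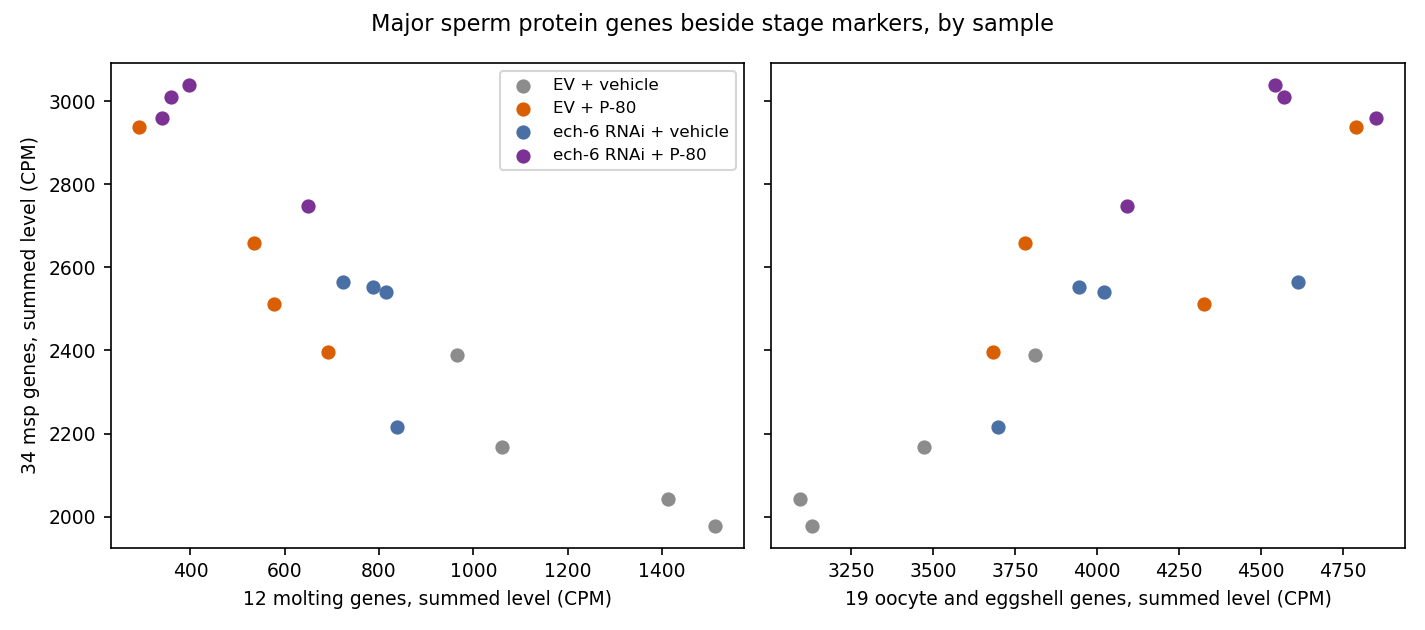
Summed level (CPM) of the 34 msp genes in each of the 16 samples against that of 12 molting genes (left) and of 19 oocyte and eggshell genes (right), coloured by group. EV + vehicle samples lie at the low msp and high molting end, and ech-6 RNAi + P-80 samples at the high msp end.

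Of 27 measured sperm-enriched genes outside the naming rule, 10 were called higher with P-80 in EV worms, against 6.97% of all genes, and 0 in silenced worms by limma, with 6 at an unadjusted p under 0.05 and 2.63% of all genes called. Their medians were 0.13 and 0.07, and their summed level had group means from 1353 to 1509 CPM. Genes of the male soma and seminal fluid, 10 of 12 measured, summed to between 22.5 and 28.1 CPM in all samples, and the 1 call among them was mab-3, lower with P-80 in EV worms. Of 14 germline sex determination genes, fem-3 was called higher in EV worms (0.31), and the group means of their sum were 901 to 936 CPM. sth-1, 1 of 5 genes of the spermatheca and sheath, was called lower there (-0.54), with group means of the sum from 1534 to 1573 CPM. Of 7 genes for MSP receptors and their signalling in oocytes and sheath, gsa-1 and unc-43 were called lower in EV worms (-0.36 and -0.29). In silenced worms unc-43 was called lower (-0.22). Of all genes 9.14% and 4.58% were called lower in EV and silenced worms. The summed level of the 7 genes had group means from 710.2 to 774 CPM. In EV worms it was 759 to 799 CPM with vehicle and 691 to 740 CPM with P-80, while the groups of silenced worms overlapped. The 1 call of 14 sex determination genes and the 1 of 10 male genes lie near the 6.97% of all genes called higher and 9.14% called lower in EV worms. The part of these genes in the sperm gene result was not tested.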

How the data were processed

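RNA of whole worms was depleted of rRNA and sequenced with the strand kept. Per the labels, the reads were trimmed with Trimmomatic 0.32, aligned with HISAT2 2.0.4 and counted with HTSeq 0.6.1. The authors used WBcel235 with Ensembl release 91, dropped genes that did not exceed 2 counts in 4 or more samples, and applied TMM scaling. What they deposited is log2 CPM, with the same small constant in every sample, under a header that reads CPM. Whole reads could be computed back for 100% of the values (within 0.05 read). No sample column was left unused.

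The log2 values were fitted in R 4.3.3 with limma 3.58.1 (1 mean per group, all 16 samples, mean-variance trend). Tests were two-sided with Benjamini-Hochberg adjustment over 19750 genes, in 5 comparisons, and fold changes are on the log2 scale. Positions and exon lengths came from Ensembl release 115 of WBcel235. In the deposited data, with 4 samples per group, the median SE of a log2 fold change over all genes was 0.14. Separately, the fit was tested on simulated data.

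Members and gene lists were chosen with earlier results of these data known. Named genes were gsp-3 and gsp-4, the 4 most abundant genes of each other class, the spe genes with a listed role, and in each comparison the called genes if 10 or fewer, otherwise the 6 with the largest change averaging at least 1 CPM. Other genes were named with their values in view. The values of 2 spe genes are not reported singly here; they stay in the counts, medians and sums. Alternatives were no trend, a filter at 1 CPM, quantile normalization, median centring, a constant of 2 reads, voom weights, only the groups compared, a replicate block, leaving out each sample, and the molting covariate.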

Additional observations from a re-analysis of the deposited data

Results flagged for a closer look

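In groups of 4 samples, 13 of 184 groups checked had a sample far from the other 3 by Dixon's test (chance flags about 1 in 20 groups). The library ech-6 RNAi + vehicle replicate 2 was the low sample in 6 of them. Its summed msp level was 2217 CPM while the other 3 lay between 2542 and 2566 CPM, and its log2 CPM was 6.71 for msp-45, 6.07 for msp-53, 7.15 for msp-81, 2.76 for spe-12 and 2.90 for spe-8. In ech-6 RNAi + P-80, replicate 3 was low for the gsp sum (182 CPM) and for gsp-4 (6.26), and replicate 1 was high for msd-2 (6.99). In EV + vehicle, replicate 2 was high for the spe sum (557.5 CPM) and replicate 4 for spe-10 (3.48). In EV + P-80, replicate 1 was high for spe-27 (2.16) and replicate 4 low for ssp-33 (3.36).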

How the results depend on the processing

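No alternative reversed the direction of a named gene that passed, and no alternative called a sperm gene lower. Called higher were 22 msp and 9 other sperm genes for P-80 in EV worms, 16 and 3 in silenced worms, 2 and 3 for ech-6 RNAi with vehicle, and 0 and 0 with P-80. With the molting covariate these counts were 0 throughout, and for P-80 in EV worms 22 of 34 msp and 28 of 41 other sperm genes had a positive value, against 32 and 36 without it. Without the trend there were 0 and 0 for P-80 in silenced worms and 1 and 0 for ech-6 RNAi with vehicle. Median centring gave 15 other sperm genes for P-80 in EV worms, 5 in silenced worms, and 1 msp gene for ech-6 RNAi with vehicle. Fitting only the groups compared gave 5 other sperm genes for P-80 in EV worms and 8 msp genes for ech-6 RNAi with vehicle. The cause of these shifts was not tested.

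Leaving out each sample in turn gave 15 to 27 msp and 2 to 15 other sperm genes for P-80 in EV worms, 1 to 19 and 0 to 8 in silenced worms, 0 to 9 and 0 to 5 for ech-6 RNAi with vehicle, and 0 to 3 and 0 to 1 with P-80. The lowest other count for P-80 in EV worms (2) came without EV + vehicle replicate 1. Without EV + vehicle replicate 4 it was 3, without EV + P-80 replicate 1 or 4 it was 4, and without EV + vehicle replicate 2 it was 15. For P-80 in silenced worms the msp count was 2 without ech-6 RNAi + P-80 replicate 1 or 4 and 3 without replicate 2 of that group. It was 7 without ech-6 RNAi + vehicle replicate 4. Over all genes these fits called 258, 327, 325 and 297 higher, in this order, against 519 with all samples. The 3 msp calls and the 1 other call for ech-6 RNAi with P-80 appeared only without EV + P-80 replicate 4. That fit called 108 of all genes higher, against 94 with all samples. Of the named genes' values, 30 newly passed the threshold and 140 no longer passed it when a sample was left out. Among the other settings, the molting covariate included, 19 newly passed and 67 no longer did.

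The labels number the replicates of every group from 1 to 4. Of 24 pairs with the same number 6 had a correlation of deviations over 0.1 (range -0.29 to 0.49), and in 5 of the 24 the sample with the same number was the best match, so the numbers were not taken to pair the samples. A replicate block gave 24 msp and 10 other calls for P-80 in EV worms, 13 and 3 in silenced worms, and 1 and 2 for ech-6 RNAi with vehicle. Depth and 4 samples per group limit the weakest genes most: the 3 msp genes under 1 CPM had a median SE of 0.40.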
